A study of Mus musculus with 6 samples.

Results

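Fc gamma receptors are the surface proteins through which macrophages, microglia and other leukocytes bind immunoglobulin G. The mouse genes are Fcgr1, Fcgr2b, Fcgr3 and Fcgr4, and the activating receptors among them signal through a shared partner, the gamma chain encoded by Fcer1g. All probe sets that the platform annotation assigns to 1 of these 5 symbols and no other were taken, which gave 10 of the 45037 probe sets tested and 5 of 18193 genes. Fcgr2b had 5 probe sets, Fcgr1 had 2, and Fcgr3, Fcgr4 and Fcer1g had 1 each.

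Total RNA from brain of C57/Bl6 mice aged 2 months was measured on 6 one-colour arrays, in a study of what loss of Pofut1 does to neural progenitor cells of the adult. Pofut1 encodes an O-fucosyltransferase that acts on Notch receptors. The 3 groups held 2 arrays each. NestinCre control mice carried the Nestin-Cre transgene and wild-type Pofut1, Flox control mice carried Pofut1 flox/flox and no Cre, and knockout mice carried Nestin-Cre and Pofut1 flox/flox. Nestin-Cre is active in neural progenitors and their progeny, whereas microglia and other myeloid cells, the usual carriers of Fc gamma receptors in brain, come from another lineage. No treatment was given, and how the RNA samples relate to animals is not stated in the labels. The p-values therefore rest on how far these samples spread, and some of that spread may be technical.

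In activating Fc gamma receptors, the receptor subunit binds the antibody and the gamma chain carries an immunoreceptor tyrosine-based activation motif (ITAM). Src family kinases phosphorylate this motif when antibody clusters the receptors, and the kinase Syk is then recruited, which leads to phagocytosis, oxidant release and cytokine production. Fcgr2b is the inhibitory member: it carries an inhibitory motif of its own, recruits the phosphatase encoded by Inpp5d and dampens signals from the activating receptors. In healthy brain the receptors are found mainly on microglia and on macrophages at the borders and vessels.

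The targeted gene was checked first. The brightest Pofut1 probe set, 1443881_at, read 9.84 and 9.77 on the log2 scale in NestinCre controls, 9.95 and 9.81 in Flox controls, and 9.25 and 9.44 in knockouts. Both knockout arrays were below all 4 controls, by 0.50 on average (log2 difference -0.50, SE 0.08), which did not pass adjustment (limma, adjusted p = 0.211). All 10 neuron, 8 astrocyte and 6 oligodendrocyte markers measured lay above the array median on every array, as the label brain requires. The array medians were 7.32 to 7.36, and the correlation between arrays over the whole table was 0.985 to 0.995. The arrays differed in sex: Xist and Eif2s3y, which is on the Y chromosome, marked 1 NestinCre control (replicate 2) and 1 knockout (replicate 1) as male. NestinCre control replicate 2 also stood apart in S100a8, a neutrophil calprotectin subunit, at 9.16 against 6.17 to 6.56 elsewhere. Both knockout comparisons use the same 2 knockout arrays.

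Knockout brain held more RNA of Fcgr4, which rose 3.36-fold over both controls and was the member that passed the test over all probe sets. The other activating receptors, Fcgr1 and Fcgr3, the inhibitory Fcgr2b and the gamma chain Fcer1g each had a probe set in which both knockout arrays lay above all 4 controls, with group means 0.46 to 0.90 apart on the log2 scale, but none of these passed. In total 1 of the 10 member probe sets was called in the comparison with both controls, where 0.0155% of all probe sets were called in either direction and 0.00666% were called higher. At an unadjusted p under 0.05, 6 of the 10 member probe sets were higher, against 6.04% of all probe sets. Both knockout arrays exceeded all controls in 8 of 10 member probe sets, against 8.77% of all. With the brightest probe set of each gene, this held for 5 of 5 members and 7.23% of all genes. In RNA of whole brain, more cells of a type and more RNA per cell cannot be told apart.

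**Figure D1:**
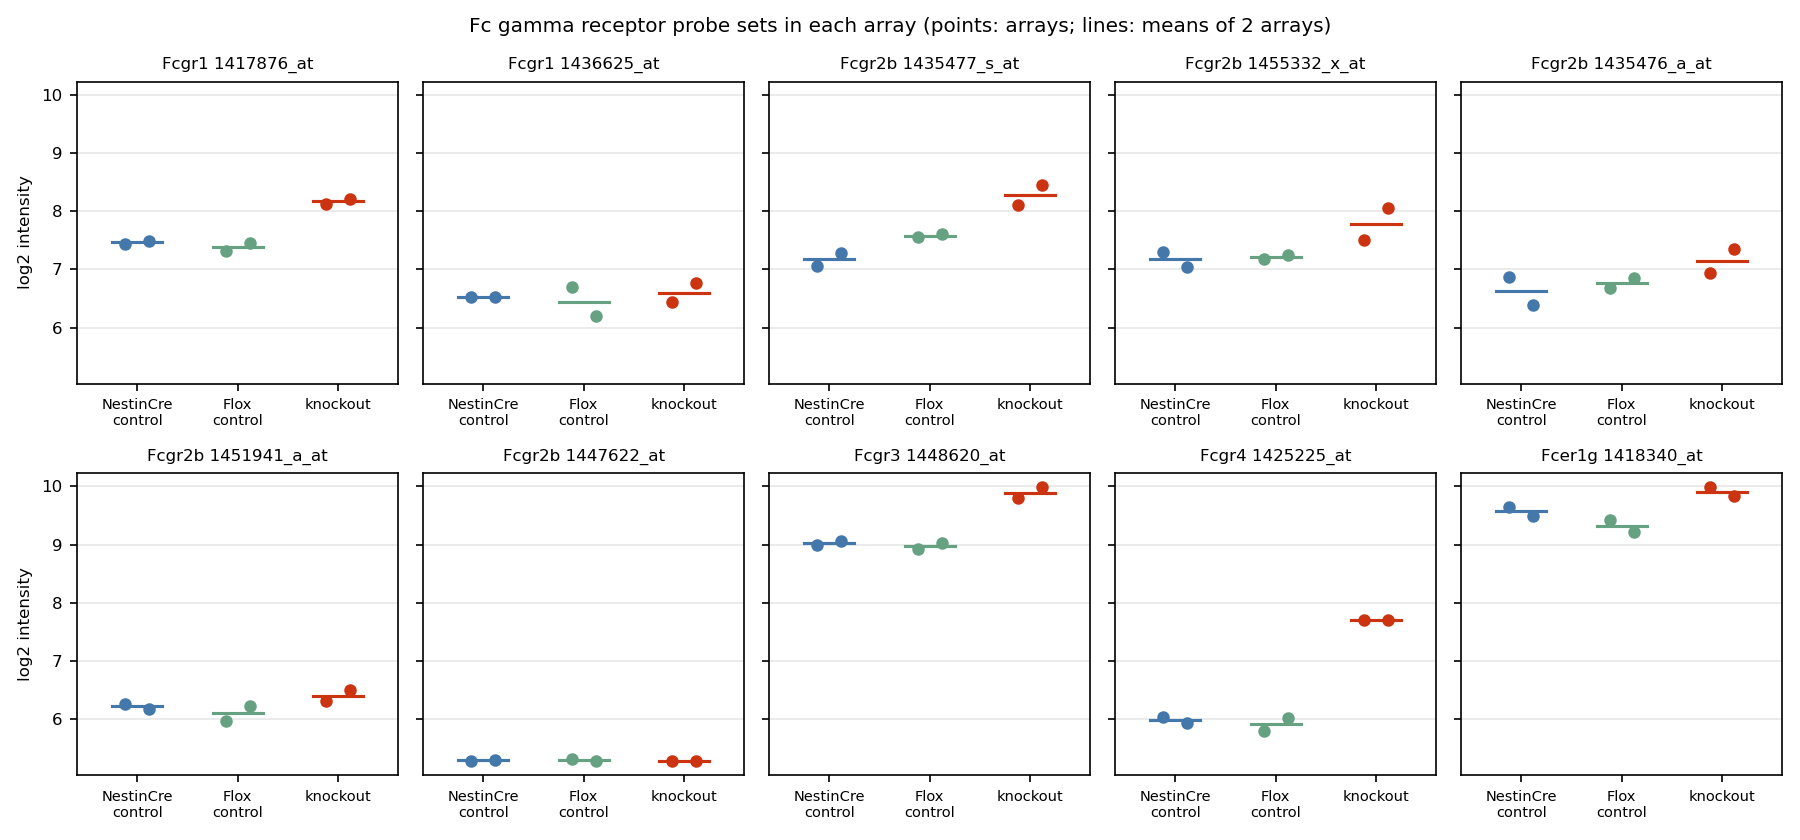
Log2 intensity (vertical axis) of the 10 probe sets of the 5 genes in each array, by group (horizontal axis). Points are arrays and horizontal lines are means of 2 arrays. Fcgr4 read 5.80 to 6.04 in the 4 controls and 7.70 and 7.71 in the knockouts, whereas the dimmest Fcgr2b probe set stayed between 5.28 and 5.32 on all arrays.

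Fcgr4 encodes an activating receptor of macrophages and neutrophils that needs the gamma chain to reach the cell surface. Its probe set, 1425225_at, read 6.04 and 5.94 on the log2 scale in NestinCre controls, 5.80 and 6.03 in Flox controls, and 7.70 and 7.71 in knockouts. As intensities these were 65.9 and 61.2, 55.9 and 65.2, and 208 and 209. The lowest knockout array was thus 1.65 above the highest control on the log2 scale, and the 2 knockout arrays nearly coincided. In controls Fcgr4 was among the dim probe sets, at percentiles 20.6 to 26.2 of its array, and in both knockouts it was just above the middle, at percentile 55.0.

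The log2 difference of Fcgr4 between knockout and both controls was 1.75 (SE 0.08, 95% interval 1.54 to 1.96), with an adjusted p of 0.0345 by limma over all probe sets. Against each control alone the size was similar and the test was missed. It was 1.71 (SE 0.09) over NestinCre controls, adjusted p = 0.0638, and 1.79 (SE 0.09) over Flox controls, adjusted p = 0.0656. In these comparisons 0% and 0.00444% of all probe sets were called by limma, and 0 members were called in either, although 6 of the 10 had an unadjusted p under 0.05 in each. Over all probe sets, 3.2% had such a p and were higher in knockout than in NestinCre controls, and 8.29% than in Flox controls. The control groups differed in Fcgr4 by 0.07 (SE 0.09, 95% interval -0.17 to 0.31). The Fcgr4 call did not survive leaving out any 1 of the 6 arrays (limma adjusted p from 0.106 to 0.357, differences from 1.69 to 1.81), nor sex as a covariate (1.76, adjusted p = 0.153) or the female arrays alone (1.73, adjusted p = 0.730). Between the male arrays the difference was 1.76 (1 knockout, 1 control), and among the female arrays 1.75 (1 knockout, 3 controls).

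Fcgr1 encodes the high-affinity receptor, CD64, which can bind single IgG molecules. Its brighter probe set, 1417876_at, read 7.44 and 7.49 in NestinCre controls, 7.32 and 7.46 in Flox controls, and 8.12 and 8.22 in knockouts. Every knockout value was above every control value, and the control groups overlapped. The log2 difference was 0.74 (SE 0.07) over both controls, 0.71 (SE 0.08) over NestinCre and 0.78 (SE 0.08) over Flox controls. The limma adjusted p was 0.0890 over both controls, 0.200 over NestinCre and 0.108 over Flox controls, so the gene did not pass in any of them. The 2 probe sets of Fcgr1 disagreed. The second, 1436625_at, read 6.53 and 6.53, 6.70 and 6.20, and 6.44 and 6.76 in the same order, so its groups overlapped, with a difference of 0.11 (SE 0.17, 95% interval -0.33 to 0.56). The spread of its Flox control arrays was larger than any group difference.

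Fcgr3 encodes the low-affinity activating receptor known as CD16. Its probe set, 1448620_at, read 8.99 and 9.05 in NestinCre controls, 8.92 and 9.02 in Flox controls, and 9.79 and 9.99 in knockouts. The lowest knockout array was 0.74 above the highest control. The log2 difference was 0.90 (SE 0.08) over both controls, 0.87 (SE 0.09) over NestinCre and 0.92 (SE 0.09) over Flox controls. The limma adjusted p was 0.0890, 0.186 and 0.108, respectively, so Fcgr3 did not pass in any of the 3. The controls differed by 0.05 (SE 0.09, 95% interval -0.18 to 0.28). For Fcgr1 and Fcgr3 the call depends on the setting: of 12 alternative settings other than leaving out an array, the test of knockout against both controls was passed in 4 by Fcgr1 1417876_at and in 5 by Fcgr3.

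The stretch around the start site is shown for these 3 activating receptors because their levels moved together most closely over the arrays. Each sequence runs from 250 bases before to 50 bases after a start site, 5′ to 3′ on the strand of the gene, and comes from RefSeq on GRCm38.p6. The positions are chr1:171018676-171018975 on the plus strand for Fcgr4, chr3:96293920-96294219 on the minus strand for Fcgr1, and chr1:171059354-171059653 on the minus strand for Fcgr3. Fcgr3 has a second start-site entry with a window shifted by a few bases, which is not printed. Capitals mark matches to 3 motifs searched on both strands: the interferon-gamma activated site TTCNNNGAA, the core of the interferon-stimulated response element (searched as 10 letters of which the 2 in the middle are free), and the PU.1 core GAGGAA, which reads TTCCTC on the other strand.
Fcgr4: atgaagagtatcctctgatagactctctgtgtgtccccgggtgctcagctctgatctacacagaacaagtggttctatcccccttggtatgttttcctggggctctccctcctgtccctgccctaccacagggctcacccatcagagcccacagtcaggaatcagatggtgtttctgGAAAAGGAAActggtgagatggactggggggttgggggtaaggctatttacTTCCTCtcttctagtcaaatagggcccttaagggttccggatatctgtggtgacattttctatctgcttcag
Fcgr1: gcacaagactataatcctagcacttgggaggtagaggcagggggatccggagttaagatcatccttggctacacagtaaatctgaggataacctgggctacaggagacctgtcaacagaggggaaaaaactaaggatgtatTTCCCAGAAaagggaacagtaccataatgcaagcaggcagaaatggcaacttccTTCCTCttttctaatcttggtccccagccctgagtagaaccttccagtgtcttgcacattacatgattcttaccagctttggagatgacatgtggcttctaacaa
Fcgr3: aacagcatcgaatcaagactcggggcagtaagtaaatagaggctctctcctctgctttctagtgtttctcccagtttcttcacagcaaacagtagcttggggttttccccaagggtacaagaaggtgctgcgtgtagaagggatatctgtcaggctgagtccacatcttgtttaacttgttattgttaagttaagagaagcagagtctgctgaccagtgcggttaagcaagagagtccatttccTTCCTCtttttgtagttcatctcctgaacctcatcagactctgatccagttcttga
The TTCCTC match lies at -22 to -17 in Fcgr4, at -55 to -50 in Fcgr1 and at -6 to -1 in Fcgr3, counted from the start site. Fcgr4 also has the match GAAAAGGAAA to the response element core at -73 to -64, and Fcgr1 the match TTCCCAGAA to the activated site at -109 to -101. None of the capitalised matches overlap. Over 32851 promoter windows of the same length, 28.3% held the PU.1 core, 8.30% the activated site and 3.44% the response element core. None of the 3 motifs occurs in the windows of Fcgr2b (chr1:170976022-170976321, minus strand) and Fcer1g (chr1:171234300-171234599, minus strand). A match describes letters in this window and no binding was measured.

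Fcer1g encodes the gamma chain, the ITAM subunit shared by the activating Fc gamma receptors, by the IgE receptor and by several lectin receptors. Its probe set, 1418340_at, read 9.65 and 9.49 in NestinCre controls, 9.43 and 9.22 in Flox controls, and 9.98 and 9.83 in knockouts. The knockout arrays were the 2 highest, only 0.18 above the highest control, and the control groups did not overlap either. Against both controls the log2 difference was 0.46 (SE 0.09), with a limma adjusted p of 0.242. It was 0.34 (SE 0.11, adjusted p = 0.770) over NestinCre controls and 0.58 (SE 0.11, adjusted p = 0.145) over Flox controls. The controls themselves differed by 0.25 (SE 0.11, 95% interval -0.03 to 0.52), which is also how far the 2 knockout comparisons differed from each other. Fcer1g passed the test in 0 of the 12 alternative settings.

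Fcgr2b encodes the inhibitory receptor, CD32b. In its brightest probe set, 1435477_s_at, the arrays read 7.06 and 7.28 in NestinCre controls, 7.55 and 7.61 in Flox controls, and 8.11 and 8.45 in knockouts. The 3 groups stood in separate ranges, with Flox controls between NestinCre controls and knockouts. The log2 difference was 0.90 (SE 0.12, limma adjusted p = 0.176) over both controls. It was 1.11 (SE 0.14, limma adjusted p = 0.256) over NestinCre controls and 0.69 (SE 0.14, limma adjusted p = 0.155) over Flox controls. NestinCre controls were lower than Flox controls by 0.41 on average (difference -0.41, SE 0.14, 95% interval -0.77 to -0.05), with a limma adjusted p of 0.445. In that comparison of the controls 0% of all probe sets were called by limma and 10.4% had an unadjusted p under 0.05. Among the members none was called and 1 of 10 had such a p, this Fcgr2b probe set. In knockout against both controls, 1435477_s_at passed the test in 1 of the 12 alternative settings other than leaving out an array.

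The 5 Fcgr2b probe sets did not give 1 size. Other probe sets share the transcript record BM224327 with the brightest: 1455332_x_at differed by 0.59 (SE 0.18, limma adjusted p = 0.363) and 1435476_a_at by 0.44 (SE 0.19, limma adjusted p = 0.484) between knockout and both controls. In 1455332_x_at the arrays read 7.31 and 7.04, 7.18 and 7.24, and 7.50 and 8.06 in NestinCre control, Flox control and knockout, and in 1435476_a_at 6.86 and 6.39, 6.68 and 6.86, and 6.93 and 7.35. With 1 array left out, the difference ran from 0.31 to 0.87 in 1455332_x_at and from 0.23 to 0.65 in 1435476_a_at, lowest without knockout replicate 2 and highest without knockout replicate 1 in each. In both the knockouts were highest, and the 2 knockout arrays differed from each other by nearly as much as from the controls. In 1451941_a_at the knockouts read 6.30 and 6.50 and the controls 5.98 to 6.27, a difference of 0.24 (SE 0.10), which was 0.14 without knockout replicate 2. In 1447622_at all 6 arrays read 5.28 to 5.32, at or below percentile 2.48 of each array, and the difference was -0.01 (SE 0.04, 95% interval -0.13 to 0.10).

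**Figure D2:**
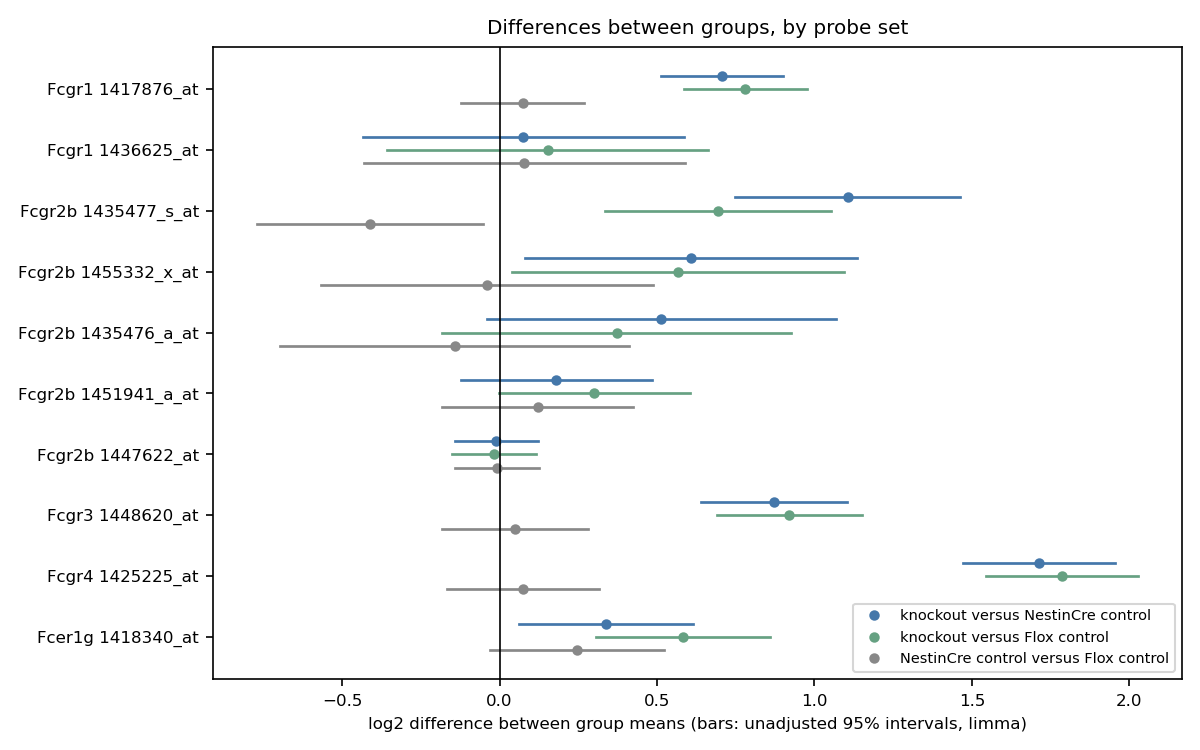
Log2 difference between group means (horizontal axis) for each member probe set (vertical axis), with unadjusted 95% limma intervals as bars. Blue and green show knockout minus each control and grey shows NestinCre minus Flox control. Fcgr4 lies at 1.71 and 1.79 with grey at 0.07, and the brightest Fcgr2b probe set is the one whose grey bar does not reach 0.

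Levels were ordered by group within each gene, using the brightest probe set. Knockout was highest for all 5 members. NestinCre and Flox controls could not be ordered for Fcgr1, Fcgr3 and Fcgr4, where their arrays overlapped. For Fcer1g the NestinCre controls were higher and for Fcgr2b the Flox controls, in both cases without passing adjustment. The median of the 5 differences from both controls was 0.90, against -0.02 over all 18193 genes, of which 40.7% were above 0.

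The size of the shift was compared between members as the difference of 2 members within each array. Over the 10 pairs, the shift of Fcgr4 exceeded that of Fcer1g by 1.29, of Fcgr1 by 1.01, of Fcgr3 by 0.85 and of Fcgr2b by 0.85 on the log2 scale. In each of these 4 pairs the knockout arrays lay outside the range of the controls. The Fcgr4 minus Fcer1g value, for example, was -3.61, -3.55, -3.62 and -3.20 in the controls and -2.29 and -2.12 in the knockouts. The exact permutation test over arrays, two-sided by doubling the smaller tail, gave p = 0.133 for each of the 4, and 0.222 after adjustment over the 10 pairs. With 2 arrays against 4, 0.133 is the smallest p that this form of the test can give. The shift of Fcgr3 exceeded that of Fcer1g by 0.44 and that of Fcgr1 by 0.15, again with exact permutation p = 0.133. Fcgr2b and Fcgr3 had shifts that differed by 0.0035, with overlapping arrays and an exact permutation p of 1. The design cannot reach 0.05 for any pair.

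Because members are expressed in myeloid cells, their values were set beside markers of the cells that could carry them. In knockout against both controls, 14 of 15 microglia markers lay above 0. Their median was 0.10 and their range -0.01 to 0.70, and none was called. Among genes, 0.0275% were called in this comparison and 4.16% were higher and 6.45% lower with an unadjusted p under 0.05, against 4 and 0 of the 15 markers. Aif1, which encodes the microglial calcium-binding protein IBA1, stood at 7.84, 7.81, 7.92 and 8.09 in the controls and at 8.59 and 8.63 in the knockouts, a difference of 0.70 (SE 0.06, limma adjusted p = 0.0978). The fractalkine receptor Cx3cr1 differed by 0.19 (SE 0.11) with overlapping arrays, and the complement genes C1qa and C1qc by 0.27 (SE 0.09) and 0.34 (SE 0.08). Summed over the list, microglia markers ran from 14688 to 16320 in controls and from 16356 to 16912 in knockouts. Most of this sum came from Csf1r, at 12.04 to 12.30 over all arrays, and C1qb, at 12.24 to 12.40. The part of the microglia list in the members' shift was not tested.

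The mean log2 level of the microglia list was 0.17 higher in knockout. Set against this mean in the same array, Fcgr4 was 1.58 higher, Fcgr2b 0.73, Fcgr3 0.72 and Fcgr1 0.57. In these 4 both knockout arrays lay above all controls. The list mean weighs dim and bright markers alike and does not measure the number of microglia, so this ratio cannot separate cell number from RNA per cell. Fcgr4 minus the list mean was -2.88 and -3.01 in NestinCre controls, -3.25 and -2.90 in Flox controls, and -1.38 and -1.49 in knockouts. Fcer1g minus the list mean was 0.73 and 0.54, 0.37 and 0.30, and 0.90 and 0.64, so knockout replicate 2 fell below NestinCre control replicate 1, and the difference was 0.29. The exact permutation p was 0.133 for each of the 4 receptors, the smallest that this form of the test can give, and 0.267 for Fcer1g. Against the perivascular macrophage list, whose mean was 0.09 higher in knockout, the values were 1.66 for Fcgr4 and 0.37 for Fcer1g, and against the monocyte list, 0.17 higher, 1.58 and 0.29.

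**Figure D3:**
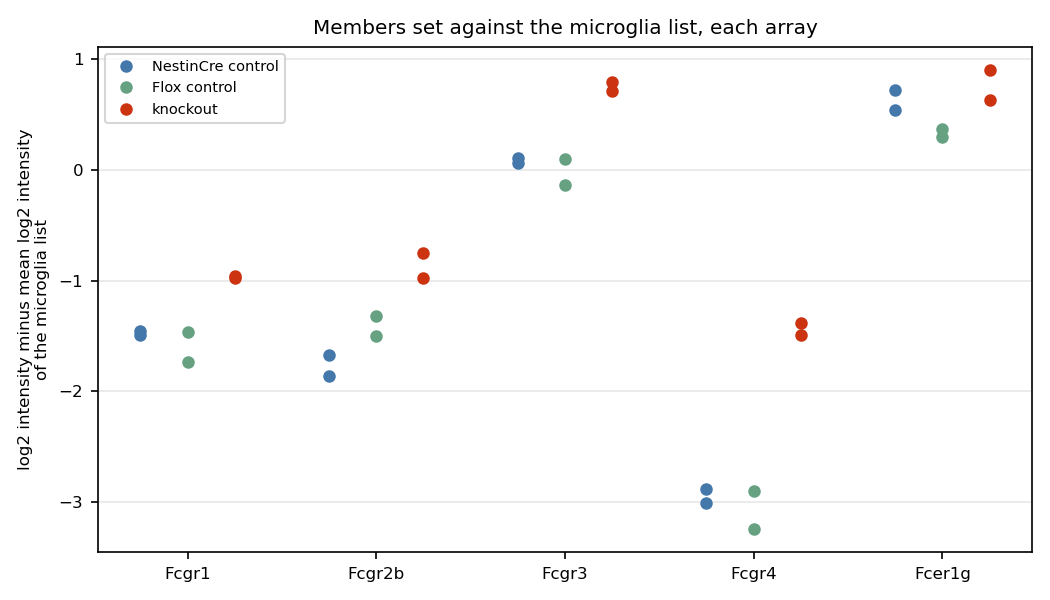
Log2 intensity of each member's brightest probe set minus the mean log2 intensity of 15 microglia markers (vertical axis), 1 point per array, by gene and group (horizontal axis). Heights of different genes cannot be compared, since each has its own probes. Knockout points lie above all control points for the 4 receptors, and for Fcer1g the lower knockout point, 0.64, is below a NestinCre control point at 0.73.

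Markers of other carriers of these receptors were measured in the same way. Of 10 perivascular macrophage markers 6 were above 0, among them the mannose receptor Mrc1 at 0.41 (SE 0.08), the hyaluronan receptor Lyve1 at 0.41 (SE 0.13) and the transglutaminase F13a1 at 0.44 (SE 0.14), and the sum ran from 1457 to 1797 in controls and from 1702 to 1762 in knockouts. The list's median was 0.09, over a range of -0.67 to 0.55, and the 4 markers below 0 were Cbr2 at -0.67, Stab1 at -0.19, Pf4 at -0.16 and Cd209f at -0.12. Of 7 monocyte markers 5 were above 0, the sum ran from 1568 to 1735 in controls and from 2059 to 2304 in knockouts, and 5 of the 7 lay below the 25th percentile on every array. In this list Vcan, which encodes the matrix proteoglycan versican and is not limited to monocytes, was 0.72 (SE 0.11) higher without passing. It read 9.38 to 9.65 in controls and 10.15 and 10.31 in knockouts, and most of the rise in the sum came from Vcan. The monocyte chemokine receptor Ccr2 read 5.41 to 5.69 in controls and 5.71 and 5.79 in knockouts. None of the markers in these lists was called. Their part in the members' shift was not tested.

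Granulocyte, lymphocyte and dendritic cell markers were read next. Of 9 neutrophil markers, 4 lay below the 25th percentile on every array and 2 were above 0. The list's sum was 1603 in NestinCre control replicate 2 against 557 to 589 in the other 5 arrays. Without that array Fcgr4 differed by 1.72 between knockout and both controls, Fcgr3 by 0.91, Fcgr2b by 0.95, Fcgr1 by 0.76 and Fcer1g by 0.42. All 8 mast cell markers, which mark the classical carriers of the gamma chain with the IgE receptor, lay below the 25th percentile on every array, and the sum was 360 to 380 in controls and 360 to 365 in knockouts. Of 11 natural killer and T cell markers, 7 lay below the 25th percentile on every array and 5 were above 0. Of 7 dendritic cell markers, 3 lay below the 25th percentile on every array and 3 were above 0. The integrin Itgax, which microglia can also express, was among these at 5.58, 5.63, 5.66 and 5.74 in controls and 6.40 and 6.30 in knockouts, a difference of 0.70 (SE 0.06, limma adjusted p = 0.0890).

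Among cells that do not belong to the blood lineage, 2 of 8 astrocyte markers were above 0, with a median of -0.12. Gfap, the intermediate filament of astrocytes, read 11.13 and 11.00 in NestinCre controls, 11.20 and 11.15 in Flox controls, and 11.90 and 12.07 in knockouts. Both knockouts were above all controls, with a difference of 0.86 (SE 0.07, limma adjusted p = 0.0890). The water channel gene Aqp4 differed by 0.25 (SE 0.06) and the glutamate transporter gene Slc1a2 by -0.23 (SE 0.05). None of the 8 passed, and their part in the members' shift was not tested.

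Next to the members, the other genes of the pathway were taken from lists by role, and none of their genes passed the test. For these lists, the shares over all genes were 40.7% above 0, and 4.16% higher and 6.45% lower at an unadjusted p under 0.05. Among 12 partners of the gamma chain and related ITAM adaptors, 10 were above 0, with a median of 0.13 (0.067 without knockout replicate 1). Of the 12, 2 were higher at an unadjusted p under 0.05, and 4 lay below the 25th percentile on every array. The beta-glucan receptor gene Clec7a, whose product signals through an ITAM-like motif of its own, read 5.66, 5.82, 5.84 and 5.85 in controls and 7.01 and 6.86 in knockouts, a difference of 1.14 (SE 0.07, limma adjusted p = 0.0630). Tyrobp, the DAP12 adaptor and closest relative in function to the gamma chain, read 9.79, 9.75, 9.71 and 9.85 in controls and 10.33 and 10.18 in knockouts. Its difference was 0.48 (SE 0.07, limma adjusted p = 0.183), and unlike Fcer1g it gave nearly the same size over NestinCre, 0.48, and over Flox controls, 0.48. Whether Tyrobp and Fcer1g differ in this was not tested.

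The kinases and adaptors that act directly below the receptors were above 0 in 11 of 12 cases, with a median of 0.09 (0.035 without knockout replicate 2 and 0.16 without knockout replicate 1). Of the 12, 3 were higher at an unadjusted p under 0.05, against 4.16% of all genes. Syk, the kinase that docks on the phosphorylated gamma chain, differed by 0.11 (SE 0.06) with overlapping arrays. Fyn, a Src family kinase that neurons also express, differed by 0.19 (SE 0.07), the adaptor Lcp2 (SLP-76) by 0.23 (SE 0.08), and the Tec family kinase Btk by 0.07 (SE 0.07). The ubiquitin ligase gene Cbl differed by 0.58 (SE 0.14), and its NestinCre controls, at 9.30 and 9.73, were well above its Flox controls, at 9.07 and 9.09.

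Of 14 phospholipase, PI3K, Vav and kinase C genes, 12 were above 0, with a median of 0.09 (0.019 without knockout replicate 2). Pik3cg, the gamma catalytic subunit of PI3K in leukocytes, had the largest difference of the list at 0.81 (SE 0.16, limma adjusted p = 0.242). Plcg2, the leukocyte phospholipase C gamma, differed by 0.14 (SE 0.13) and the exchange factor Vav1 by 0.08 (SE 0.14), both with overlapping arrays. Akt1, a kinase found in most cells, was lower with a difference of -0.21 (SE 0.06), also without passing.

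Of 12 inhibitory phosphatases and adaptors 9 were above 0, with a median of 0.05 (0.18 without NestinCre control replicate 1). Inpp5d, the phosphatase that Fcgr2b recruits, read 8.03 and 8.07 in NestinCre controls, 8.11 and 8.19 in Flox controls, and 8.56 and 8.57 in knockouts. It differed by 0.46 (SE 0.05, limma adjusted p = 0.127), with the knockouts clear of the controls. The inhibitory receptor gene Pilra differed by 0.57 (SE 0.10), and Ptpn6, the phosphatase SHP-1, by 0.04 (SE 0.22). The adaptor gene Dok3 differed by 0.20 (SE 0.05) over both controls but by 0.04 over NestinCre controls. It read 8.06 and 7.96 in NestinCre controls, 7.70 and 7.66 in Flox controls, and 8.04 and 8.05 in knockouts. Effector genes were read next. All 5 phagocyte oxidase genes were above 0, with a median of 0.18 (0.40 without knockout replicate 1). The catalytic subunit Cybb read 5.77, 5.82, 5.59 and 5.77 in controls and 5.98 and 6.36 in knockouts, a difference of 0.43 (SE 0.12), the organising subunit Ncf1 differed by 0.18 (SE 0.17), and the GTPase Rac2 by 0.02 (SE 0.06). Of 14 genes of the phagocytic actin machinery 9 were above 0, with a median of 0.02 (-0.025 without knockout replicate 2).

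**Figure D4:**
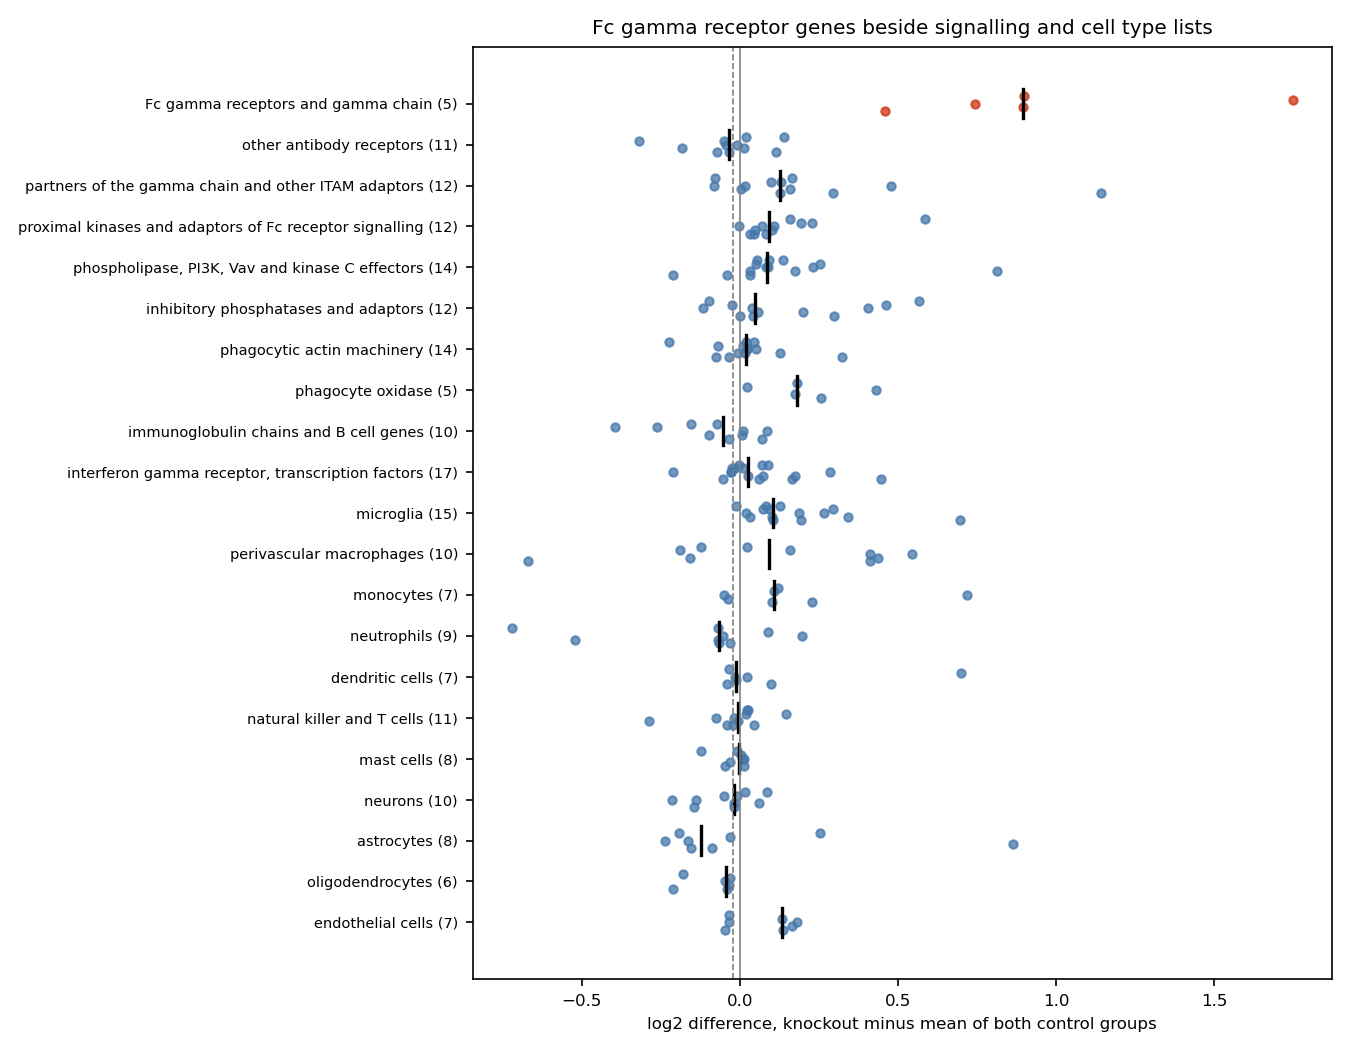
Log2 difference between knockout and the mean of both control groups (horizontal axis) for each gene, by list with the number of genes measured (vertical axis), using the brightest probe set. Points are genes, black bars list medians, the dashed line the median of all genes at -0.02. The 5 members have a median of 0.90, and the medians of the other 20 lists lie between -0.12 and 0.18.

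Other receptors for antibodies lay close to 0 as a list. Only 4 of 11 lay above 0 (median -0.03, range -0.32 to 0.14, and a median of 0.011 without NestinCre control replicate 1), against 40.7% of all genes. In each direction 1 had an unadjusted p under 0.05, where 4.16% of all genes were higher and 6.45% lower. Of the 11, 5 lay below the 25th percentile on every array, where differences are compressed and a change could be missed. The neonatal Fc receptor Fcgrt, which recycles IgG in endothelium and other cells, differed by -0.18 (SE 0.14) with overlapping arrays. The IgM receptor gene Fcmr differed by -0.32 (SE 0.09). In this gene the Flox controls stood apart at 6.74 and 6.49, and the NestinCre controls and knockouts read at most 6.01. Of 18 listed immunoglobulin chain and B cell genes, 10 were measured. Among these 4 were above 0, with a median of -0.05 (0.020 without knockout replicate 1), and none had an unadjusted p under 0.05. Most of the 10 do not encode IgG, the ligand of the members. The IgG chain gene Ighg3 read 6.23, 6.03, 5.96 and 5.97 in controls and 6.04 and 6.08 in knockouts. IgG protein was not measured. Ighm, the constant region of IgM, read 9.69, 9.63, 9.81 and 9.84 in controls and 9.71 and 9.25 in knockouts.

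Expression of Fcgr1 and Fcgr4 is known to be raised by interferon gamma, and PU.1 is a factor needed for receptor expression in myeloid cells. A list of 17 genes covered the interferon gamma receptor, its signalling and such factors, and also some other cytokine and cytokine receptor genes. Of the 17, 10 were above 0, with a median of 0.03 (-0.0028 without knockout replicate 2), and 3 lay below the 25th percentile on every array. Irf8, a myeloid interferon-response factor, read 6.62, 6.67, 6.62 and 6.68 in controls and 7.01 and 7.18 in knockouts, a difference of 0.45 (SE 0.07, limma adjusted p = 0.183). It was the 1 gene of the 17 with an unadjusted p under 0.05, where 4.16% of all genes were higher and 6.45% lower. Spi1, which encodes PU.1, differed by 0.01 (SE 0.13) and the receptor gene Ifngr1 by -0.05 (SE 0.14), both with overlapping arrays.

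Fcgr2b, Fcgr4, Fcgr3 and Fcer1g lie on chromosome 1 and Fcgr1 lies on chromosome 3. Among genes with a single-symbol probe set, the RefSeq order on chromosome 1 is Fcgr2b, Fcgr4 and Fcgr3 in a row, then Cfap126, Sdhc, Pcp4l1, Nr1i3, Tomm40l and Apoa2, then Fcer1g. The 6 genes between Fcgr3 and Fcer1g differed by -0.12 to 0.06 between knockout and both controls, with 3 above 0 and none past an unadjusted p of 0.05. Of the 5 genes on either side of the stretch, 10 in all, 6 were above 0, in a range from -0.23 to 0.33. The highest was Nos1ap (0.33, SE 0.06), which did not pass adjustment. The targeted gene, Pofut1, is on chromosome 2.

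Genes whose pattern over the arrays was most like each member were ranked by Pearson r over the 6 arrays, among 2301 genes above the median brightness that varied by at least 0.5 on the log2 scale. Fcgr4, with a mean of 6.54, was below that brightness and so was not among the ranked genes. These r values describe 6 points that fall into 4 control and 2 knockout arrays, so any gene with a clear gap between them scores high. Fcgr1 and Fcgr3, which lie on different chromosomes, were each other's nearest at 0.997. The next for Fcgr1 were AU020206 at 0.990 and Slc11a1 at 0.986, and for Fcgr3 Ctsc at 0.990 and Slc11a1 at 0.989. For Fcgr4 they were Slc11a1, a phagosomal metal transporter, at 0.995, Fcgr1 at 0.992 and Fcgr3 at 0.988. The nearest genes to Fcgr2b were C1qc at 0.979, Lcat at 0.969 and Adm at 0.969, and its r with Fcgr1 was 0.884 and with Fcgr3 0.908. For Fcer1g they were Amy1 at 0.983, Odf2 at 0.983 and the lysosomal protease gene Ctss at 0.982. Its r was 0.853 with Fcgr4 and 0.561 with Fcgr2b, whose control groups stood in the opposite order.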

How the data were processed

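Brain RNA of 3 groups was measured on 6 one-colour arrays, with 25 ng of RNA amplified and labelled per sample. The deposited table holds intensities on a linear scale, and the submitters' processing notes name GCOS and RMA, with no version, role or order. RMA gives all arrays a common distribution and compresses differences of dim probe sets. The lowest intensity was near 38.1 on every array, and no detection calls were used here. The deposited values were turned into log2 intensities for all tests, since the design had assumed log2 values.

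Of 45101 probe sets, 64 controls were left out. A mean per group was fitted over all 6 arrays with limma 3.58.1 in R 4.3.3 (lmFit and eBayes, 3 residual degrees of freedom), and Benjamini-Hochberg adjustment covered the 45037 probe sets left, with a threshold of 0.05. Each SE belongs to a limma log2 difference. The number of arrays limits the precision. Lists were described at gene level by the brightest probe set, with no set test. Promoters were matched by symbol for all 5 genes. A genome build for the array annotation is not stated here.

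The members and all lists were chosen with earlier results of these data known. The text names every member probe set, Pofut1, 21 measured genes of a fixed list of 24, up to 3 more per list by smallest p (not all are printed), and the 3 genes most like each member. Eif2s3y, Xist, Nos1ap, Cbr2, Stab1, Pf4, Cd209f, Ighg3, Csf1r and C1qb were singled out after their values were seen. The fit was also tested on simulated data with known changes. Alternatives were other normalizations, filters, variance models, covariates and each array left out. The female arrays alone and the levels relative to marker lists were added after seeing the data.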

Additional observations from a re-analysis of the deposited data

How the results depend on the processing

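The Fcgr4 difference between knockout and both controls kept its direction under all 17 alternatives that gave a value, and passed the limma test in 8 of the 11 that left out no single array. It did not pass with the replicate block (1.75, adjusted p = 0.281), with sex as covariate (1.76, adjusted p = 0.153), in the female arrays alone (1.73, adjusted p = 0.730), or with 1 array left out (1.69 to 1.81). The filter on probe sets above the median leaves Fcgr4 out. Arrays with the same replicate number did not deviate together (correlations of 0.19, -0.31 and -0.24 between pairs of groups), so the numbers were not taken as pairs.

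Calls of limma in knockout against both controls were 7 over all 45037 probe sets and 1 among the 10 member probe sets. These became 135 and 2 with an intensity trend and 202 and 4 with a robust trend. With 1 probe set per gene they were 34 and 3, of 18193 and 5. Above the 25th percentile they were 76 and 3, of 33777 and 9, and above the median 34 and 2, of 22518 and 5. The other comparisons used the same totals in these settings. Median centring gave 22 over all probe sets. The replicate block, sex as covariate and the female arrays alone gave 0 and 0, and leaving out an array gave 0 to 1 over all probe sets and 0 to 0 among members. The unadjusted p was under 0.05 for 6 of the 10 members in the fit as reported.

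Against NestinCre controls, with 0 and 0 calls, the numbers were 10 and 1 with 1 probe set per gene, 9 and 1 with median centring, 39 and 1 with the trend, 72 and 1 with the robust trend, 27 and 1 above the 25th percentile, 11 over all probe sets above the median, 1 with the compared groups alone, and 0 to 1 with an array left out. Against Flox controls, with 2 and 0 calls, they were 20 and 1, 9 and 1, 162 and 2, 325 and 3, and 81 and 2 in the same order, 23 over all probe sets above the median, 0 with an array left out, and 0 over all probe sets with the compared groups alone, female arrays alone, 16 added to each intensity, repeated quantile normalization, the replicate block or sex as covariate. Between the controls, with 0 calls, there was 1 with the trend, 6 with the robust trend, 1 above the 25th percentile and 0 to 2 with an array left out. The cause of these shifts was not tested. When 1 array was left out, the medians of 9 of the 20 other lists changed sign, none reaching beyond 0.044 after the change. These were the lists of other antibody receptors, immunoglobulin genes, actin machinery, interferon signalling, neutrophils, dendritic cells, natural killer and T cells, mast cells and neurons.

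Directions turned only in small differences. With an array left out, Fcgr1 1436625_at ranged from -0.047 to 0.28 in knockout against both controls, from -0.086 to 0.24 against NestinCre, from -0.10 to 0.41 against Flox controls and from -0.17 to 0.33 between the controls. Fcgr2b 1447622_at ranged from -0.037 to 0.0019 against Flox controls and from -0.027 to 0.012 between the controls. Between the controls, Fcgr2b 1455332_x_at was 0.093 in female arrays and 0.17 with sex as covariate and ranged from -0.17 to 0.093 with an array left out. Fcgr2b 1435476_a_at was 0.095 and 0.081 and ranged from -0.38 to 0.095. Fcgr2b 1451941_a_at ranged from -0.0069 to 0.25, Fcgr3 from -0.0040 to 0.10 and Fcgr4 from -0.038 to 0.19.

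The 3 groups of 2 arrays leave 3 residual degrees of freedom, and dim probe sets such as Fcgr4 in controls lie near the floor of the deposited values, where differences are compressed.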
